A study of Mus musculus with 6 samples.

Results

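The 6 genes described here encode the receptors and ligands of the platelet-derived growth factor (PDGF) system in mouse: the receptors Pdgfra and Pdgfrb and the ligand chains Pdgfa, Pdgfb, Pdgfc and Pdgfd. They were chosen by gene symbol, and 6 of the 26264 genes in the count table are members. RNA was sequenced from 6 libraries of adult spinal cord neural stem cell cultures on the C57BL6J background, grown with EGF, FGF2, B27, N2, L-glutamine, Hepraine, Ciprofloxaine, Gentamycin and Funzine. PDGF is not among the supplements that the labels name. The cells carried a PDGFRaGFP reporter and were separated by fluorescence-activated cell sorting into a GFP-positive fraction (genotype label PDGFRaGFP/+) and a GFP-negative fraction (genotype label PDGFRaGFP/-), with 3 libraries each. The labels do not say how the reporter was built, what the + and - of the genotype stand for, or whether the shared numbers 314, 315 and 316 (replicates 1, 2 and 3) refer to a mouse, a culture or a sort. The p-values given here therefore reflect variation among these libraries, and that variation may be technical. According to the design text, the study is about how oligodendrocyte precursors and oligodendrocytes arise from such cultures.

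PDGF ligands are secreted dimers that bring together receptor tyrosine kinases at the cell surface. The alpha receptor binds the A, B and C chains, and the beta receptor binds mainly B and D. A and B chains are cut to their active form inside the cell by proprotein convertases such as furin, while C and D chains are secreted with an inhibitory CUB domain that extracellular proteases remove. In the central nervous system Pdgfra marks oligodendrocyte precursor cells, for which PDGF-A is a mitogen and survival factor, and Pdgfrb marks pericytes and other mural cells, which endothelial PDGF-B recruits to vessels.

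Because the cells were sorted on a reporter of Pdgfra, its difference between the fractions is a check of the sort and not a result. Ligands and the other receptor were not sorted on directly. Promoter windows of 2 members are shown because they stand for the extremes among the clearly detected genes whose windows hold no annotated exon of their own gene: Pdgfra, with the largest difference, and Pdgfc, with a small one. Each window is the 250 bases before the RefSeq start on the GRCm38.p6 build, which is not the mm39 build of the counts, and is written 5′ to 3′ on the plus strand. The Pdgfra window is chr5:75152001-75152250 and the Pdgfc window is chr3:81036166-81036415. Capitals mark matches on either strand to the E-box CANNTG, a motif of basic helix-loop-helix factors, or to ACAANG, a core of Sox factors.
Pdgfra: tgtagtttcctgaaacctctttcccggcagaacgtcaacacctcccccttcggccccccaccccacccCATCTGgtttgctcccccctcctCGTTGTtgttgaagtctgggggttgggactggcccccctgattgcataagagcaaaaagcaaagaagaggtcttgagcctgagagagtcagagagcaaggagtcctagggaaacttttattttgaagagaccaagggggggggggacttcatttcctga
Pdgfc: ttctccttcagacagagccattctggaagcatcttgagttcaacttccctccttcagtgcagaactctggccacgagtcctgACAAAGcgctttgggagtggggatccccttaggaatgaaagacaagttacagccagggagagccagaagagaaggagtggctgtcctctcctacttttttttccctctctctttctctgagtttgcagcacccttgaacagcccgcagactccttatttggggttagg
The Pdgfra window held 1 E-box 182 bases and 1 ACAANG match 159 bases before the start. The Pdgfc window held no E-box and 1 ACAANG match 168 bases before the start. Of 32851 windows of this length, 66.2% held an E-box and 36.3% held ACAANG, and the 2 motifs did not overlap in either window shown. These matches describe letters only, and no binding was measured.

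Depth lay between 31067850 and 45207335 counts per library. CPM stands for TMM-scaled counts relative to library size, and a positive log2 fold change means a higher level in GFP-positive cells. A gene was called at an adjusted p below 0.05 in edgeR's quasi-likelihood test over the 14554 genes that passed the count filter. In that test 55.4% of all genes were called, with 26.1% called higher and 29.2% called lower in GFP-positive cells, so a call by itself sets no gene apart. Of 10 markers of oligodendrocyte precursors, 9 were called higher, and 9 of 9 tested astrocyte markers were called lower. Of 7 tested neuron markers, 4 were called higher and 1 lower. The summed neuron markers lay between 17.0 and 26.9 CPM in GFP-negative and between 41.5 and 51.6 CPM in GFP-positive libraries. The summed level of 10 neural stem cell markers lay between 8915 and 9462 CPM in GFP-negative and between 3972 and 4188 CPM in GFP-positive libraries, so these markers were detected in both fractions. Of the 10, 7 were called lower and 2 higher, and Slc1a3, at 1792 CPM on average in GFP-negative libraries, is on the astrocyte list as well. In bulk libraries, fewer cells of a type and less RNA per cell cannot be told apart.

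Pdgfra (Entrez 18595), the alpha receptor, stood at 8.04, 19.3 and 13.9 CPM in GFP-negative replicates 1, 2 and 3, and at 237, 205 and 245 CPM in the GFP-positive ones. All GFP-positive libraries lay above all GFP-negative ones. The log2 fold change was 4.06 (SE 0.27, edgeR adjusted p = 1.28e-05), a 16.7-fold difference with a 95% interval of 10.8 to 25.7. Among the 14554 genes, 8 had a larger increase in GFP-positive cells, where decreases were not counted. The GFP-negative fraction retained Pdgfra at 3.39%, 9.43% and 5.68% of the level in the GFP-positive library of the same number. Within-number log2 differences were 4.88, 3.41 and 4.14, with the smallest in replicate 2. The GFP-negative library of replicate 2 also had the highest level, relative to its partner, for 6 of the 10 precursor markers. For Sox10, a transcription factor of the oligodendrocyte lineage, that relative level was 13.4% in replicate 2, against 5.93% and 7.78% in the others.

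Pdgfrb (Entrez 18596), the beta receptor, was close to the detection limit. The GFP-negative libraries held 2, 13 and 5 counts and the GFP-positive libraries 0, 0 and 1. The gene did not pass the count filter, and 13 of the 20 GFP-negative counts came from replicate 2. Summed over libraries and scaled to depth, Pdgfrb was 25.0-fold more abundant in GFP-negative cells, with an exact 95% interval of 4.003 to 1037 that covers counting error only. Without GFP-negative replicate 2 the ratio was 13.03 (1.67 to 587), and without replicate 2 in both fractions it was 8.08 (1.04 to 364). In the edgeR fit with no count filter the adjusted p was 0.0256. Counts of Pdgfra exceeded those of Pdgfrb 65.0-fold in GFP-negative cells (95% interval 41.9 to 107), or 35.5-fold per kb of exon, and 99.1-fold by counts without replicate 2. In GFP-positive cells the table held 26961 Pdgfra counts for 1 of Pdgfrb, a ratio whose interval starts at 4839. Both fractions therefore carried mostly alpha-receptor transcript.

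Genes that mark mural cells were near the same limit. Of 10 mural markers, 8 were below 1 CPM in every library, among them Rgs5, Kcnj8 and Vtn. Their summed level lay between 5.96 and 16.1 CPM in GFP-negative and between 1.52 and 2.34 CPM in GFP-positive libraries, and in GFP-negative libraries most of it was Myh11, a smooth muscle myosin, at 8.55 CPM on average, against 0.884 CPM in GFP-positive ones. The summed level of 10 fibroblast markers lay between 39.5 and 136 CPM in GFP-negative and between 9.04 and 18.5 CPM in GFP-positive libraries. Of these, 2 genes carried most of the signal: the collagen Col3a1, at 0.758, 102 and 20.6 CPM in the GFP-negative libraries, and the matrix protein Fbln1, at 36.9, 32.4 and 32.8 CPM there. Dpt, Cldn5 and Ly6c1, markers of fibroblasts and endothelial cells, had no counts in any library. The part of such cells in the Pdgfrb counts was not tested.

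**Figure D1:**
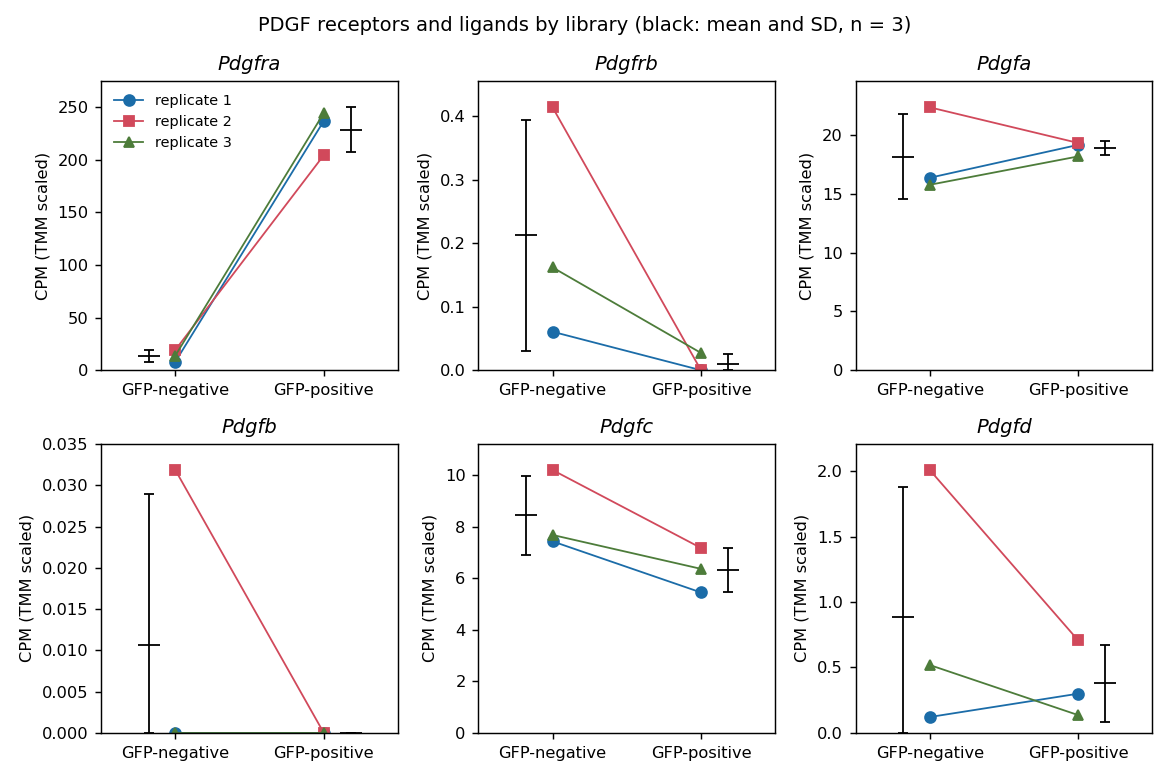
CPM (vertical axis, starting at 0, with its own scale in each panel) of the 6 genes in GFP-negative and GFP-positive libraries; coloured lines join libraries with the same number, and black bars give mean and SD (n = 3), ending at 0 where the SD exceeds the mean. Pdgfra is at most 19.3 CPM in GFP-negative and at least 205 CPM in GFP-positive libraries, Pdgfa overlaps between the groups, Pdgfc is lower in the GFP-positive library of each number, and Pdgfrb, Pdgfb and Pdgfd stay near 2 CPM or below.

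Pdgfa (Entrez 18590), the chain that acts through the alpha receptor, was the most abundant ligand in every library. It stood at 16.4, 22.4 and 15.8 CPM in GFP-negative replicates 1, 2 and 3 and at 19.2, 19.3 and 18.2 CPM in the GFP-positive ones. GFP-negative replicate 2 was the highest library and the other GFP-negative libraries the lowest, so the groups overlapped. The log2 fold change was 0.06 (SE 0.14, edgeR adjusted p = 0.747), with a 95% interval of -0.26 to 0.37, or 0.836-fold to 1.29-fold. The interval therefore does not hold a difference of the size seen for the receptor. Within numbers the log2 differences were 0.23, -0.21 and 0.21. Without GFP-negative replicate 2, Pdgfa was called higher in GFP-positive cells, by 0.24 (edgeR adjusted p = 0.0377, against 0.0377 to 0.993 over all alternatives).

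Pdgfc (Entrez 54635), another ligand of the alpha receptor, stood at 7.43, 10.2 and 7.68 CPM in GFP-negative cells. In GFP-positive cells it stood at 5.45, 7.17 and 6.36 CPM. Each GFP-positive library lay below each GFP-negative one, a separation that 64.2% of all tested genes showed in either direction. The log2 fold change was -0.41 (SE 0.17, edgeR adjusted p = 0.0682; 95% interval -0.80 to -0.02) and missed the threshold. The differences within numbers were -0.45, -0.51 and -0.27, and with the library number as a replicate block the value was -0.41 (SE 0.13, edgeR adjusted p = 0.0235), which passed. In both fractions the library of replicate 2 was the highest.

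Pdgfd (Entrez 71785), a ligand of the beta receptor, had few counts. The GFP-negative libraries held 4, 63 and 16 counts, or 0.121, 2.01 and 0.518 CPM. The GFP-positive libraries held 11, 32 and 5 counts, or 0.300, 0.706 and 0.136 CPM. Replicate 2 was the highest in both fractions, and the groups overlapped. The log2 fold change was -1.16 (SE 0.90, edgeR adjusted p = 0.305), with a 95% interval from -3.24 to 0.91 that is too wide to set its direction. Without GFP-negative replicate 2 the value was 0.31. Pdgfb (Entrez 18591), the chain that binds both receptors, had 1 count in 1 GFP-negative library and 0 in the other libraries. For the GFP-positive group, 0 of 118976378 counts allows up to 0.0252 CPM, so no difference was detectable at this depth.

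In total, 4 of the 6 genes passed the count filter. Of these 4, 1 was called higher (Pdgfra, which was sorted on) and 0 lower, where 1 was lower at an unadjusted p below 0.05 (Pdgfc) and 0 by DESeq2. Over all tested genes, 55.4% were called. With the replicate block, Pdgfra and Pdgfc were called, against 57.3% of all tested genes.

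The summed ligand level did not separate the fractions, at 27.5 ± 6.15 CPM in GFP-negative and 25.6 ± 1.40 CPM in GFP-positive cells (SD, n = 3; two-sided exact permutation p = 1). Within each number, the Pdgfa share of the ligand counts was higher and the Pdgfc share lower in the GFP-positive library. The Pdgfd share had no common direction, being higher in GFP-positive cells in replicate 1 and lower in replicates 2 and 3 (two-sided exact permutation p = 0.7). Pdgfa made up 68.4%, 64.6% and 65.8% of the ligand counts in GFP-negative libraries, and 76.9%, 71.0% and 73.7% in the GFP-positive ones. Pdgfc made up 31.1%, 29.5% and 32.0% against 21.9%, 26.4% and 25.8%. The groups did not overlap for the Pdgfa or the Pdgfc share, and 64.2% of all tested genes showed such a separation of CPM in either direction. Shares within a library are tied to each other, so the Pdgfa and Pdgfc differences are nearly the same contrast. The mean Pdgfa share differed by 7.59 percentage points and the Pdgfc share by -6.19, each with a two-sided exact permutation p of 0.1, the smallest that 3 against 3 libraries allow. These shares do not depend on library scaling. Weighted by exon length, the Pdgfa share was 75.3% ± 2.39 in GFP-negative and 81.7% ± 2.46 in GFP-positive cells (SD, n = 3).

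Levels of different genes were compared per kb of exon (the union of annotated exons, 10024 bases for Pdgfra, 3119 for Pdgfa, 5089 for Pdgfc and 3154 for Pdgfd). In GFP-negative cells Pdgfa came highest, at 5.83 ± 1.17 CPM per kb (SD, n = 3). Pdgfc followed at 1.66 ± 0.301 and Pdgfra at 1.37 ± 0.561 CPM per kb, and these neighbours in the order did not differ beyond their spread. Pdgfd lay lower, at 0.280 ± 0.315 CPM per kb. In GFP-positive cells the order was Pdgfra at 22.8 ± 2.12, Pdgfa at 6.06 ± 0.199, Pdgfc at 1.24 ± 0.170 and Pdgfd at 0.121 ± 0.0931 CPM per kb (SD, n = 3), with no overlap between neighbours. The ratio of Pdgfra to Pdgfa per kb within a library was 0.153, 0.268 and 0.274 in GFP-negative and 3.85, 3.29 and 4.18 in GFP-positive libraries. Per kb, transcript of the A ligand exceeded that of its receptor in each GFP-negative library and was below it in each GFP-positive one. Because Pdgfra was sorted on and Pdgfa overlapped between the groups, this contrast follows the sort and is a description only.

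**Figure D2:**
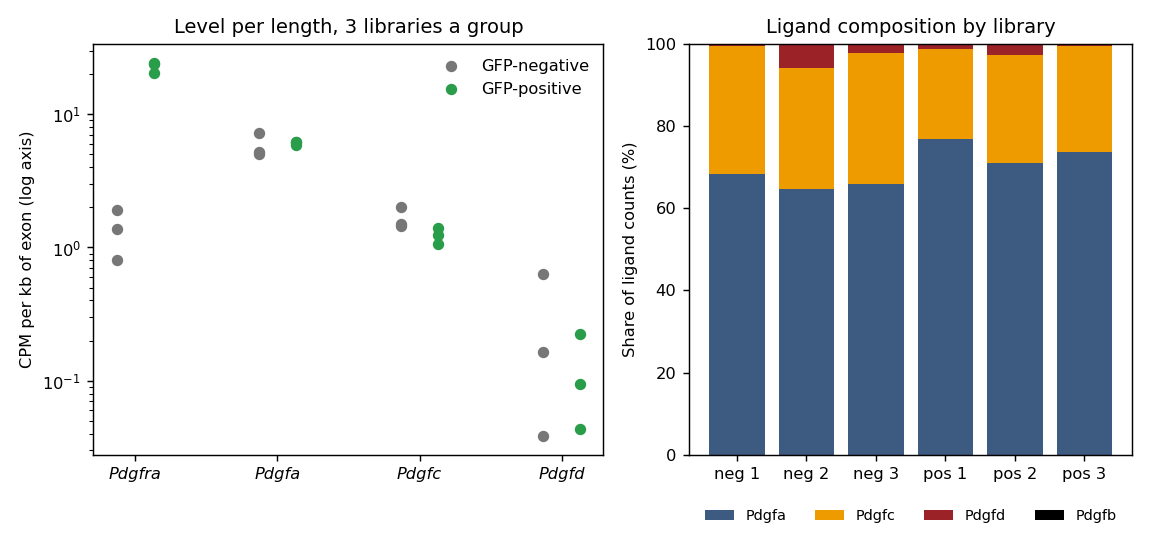
Left, CPM per kb of exon on a log axis for the 4 genes that passed the count filter, with 1 point per library (grey GFP-negative, green GFP-positive). Right, the share of each ligand in the ligand counts of each library, where neg and pos are the fractions and the digit is the replicate: Pdgfa takes 64.6% to 68.4% in GFP-negative and 71.0% to 76.9% in GFP-positive libraries.

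Genes that activate, hold or bind PDGF ligands were called more often lower than higher. Of 12 listed genes 10 were tested, with 6 called lower and 2 higher, against 29.2% lower and 26.1% higher over all genes. Their median log2 fold change was -0.67, against -0.01 over all genes. With libraries left out, 4 to 6 were called lower and 0 to 2 higher. The list was chosen with earlier results of these data known, so the count is not independent evidence. Among the convertases that cut A and B chains, Furin stood at 39.2 CPM in GFP-negative and 37.8 CPM in GFP-positive cells on average and was not called (edgeR adjusted p = 0.623). Pcsk5, another convertase, was lower, at 5.49, 4.33 and 4.54 against 3.00, 2.94 and 2.99 CPM (log2 fold change -0.69, edgeR adjusted p = 0.00717), a call lost without replicate 1 or replicate 3 (adjusted p up to 0.0769). Pcsk6 was higher, at 15.3, 29.4 and 16.1 against 32.6, 45.8 and 29.2 CPM, with groups that overlap narrowly (log2 fold change 0.82, SE 0.27, edgeR adjusted p = 0.0301). Omitting single libraries or numbers removed that call in 6 of 9 refits (adjusted p at most 0.140). Plat, tissue plasminogen activator, which frees PDGF-C from its CUB domain, was at 283, 158 and 296 CPM in GFP-negative and 38.4, 31.6 and 41.0 CPM in GFP-positive libraries. The groups were far apart, at -2.73 on the log2 scale (SE 0.23, adjusted p = 4.19e-05 in edgeR). Plau, urokinase, which can activate PDGF-D, was lower by the same measure, at -2.31, with all libraries at 1.102 CPM or less. Serpine2, an inhibitor of such proteases, was also lower, at 2806 ± 437 against 1236 ± 22.8 CPM (SD, n = 3).

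Sparc, a matrix protein that can bind PDGF-B, was at 476 ± 94.8 CPM in GFP-negative and 39.2 ± 3.25 CPM in GFP-positive cells (SD, n = 3), with a log2 fold change of -3.60. Lrp1, an endocytic receptor that associates with the beta receptor, was higher by 0.52 (SE 0.13, edgeR adjusted p = 0.0107). The Lrp1 call was lost without replicate 1 or replicate 3 (adjusted p up to 0.0766). St14, a membrane-bound protease, was below the count filter.

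Effectors that bind or act just below activated PDGF receptors were called in both directions, at a share close to that of all genes. All 36 listed genes were tested, and 11 were called higher and 9 lower, or 55.6% in all, and their median value was 0.05 on the log2 scale. The higher count was 7 when replicate 3 was omitted. On the higher side stood 4 genes for subunits of PI3-kinase. Pik3r1, the regulatory subunit p85 alpha, was at 649, 693 and 665 CPM in GFP-negative and 1265, 1201 and 1259 CPM in GFP-positive libraries. These groups lay far apart relative to their spread (log2 fold change 0.89, SE 0.06, edgeR adjusted p = 1.06e-05). Pik3cb, Pik3r3 and Pik3ca were higher by 0.96, 0.65 and 0.33, and Akt1, a kinase downstream of PI3-kinase, by 0.28, while Pik3r2 and Akt2 were not called. The Akt1 call was lost without replicate 3 (adjusted p = 0.0878). Sos1, an exchange factor that activates Ras, was higher by 0.45 (SE 0.07), and Stat5b and Stat5a, transcription factors activated by receptors of this kind, by 0.64 and 1.28. The Stat5a call disappeared in 6 of 9 refits with a library or number omitted (adjusted p at most 0.145).

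On the lower side, Shc1, an adaptor that links receptors to Ras, was at 16.0, 15.9 and 16.0 CPM in GFP-negative and 6.92, 8.34 and 6.50 CPM in GFP-positive libraries. The log2 fold change was -1.14 (SE 0.12, edgeR adjusted p = 9.74e-05), and the groups did not overlap. Mapk3, which encodes the kinase ERK1, was lower, at -0.96 (SE 0.11), Stat3 at -0.64 (SE 0.07) and Nras at -0.50 (SE 0.06). Plcg1, Ptpn11, Grb2, Gab1 and Rasa1, which dock on the phosphorylated receptor or its partners, had values between -0.11 and 0.15 and were not called. Src, a kinase recruited by PDGF receptors, had a value of 0.24 (edgeR adjusted p = 0.0527) and missed the threshold. It passed in DESeq2 (adjusted p = 0.0322) and with the replicate block (edgeR adjusted p = 0.0147). Nck1, another adaptor, was lower by a small amount, at -0.20, a call that 8 of 9 such refits and the fit with no count filter did not return (adjusted p at most 0.141).

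Of 15 genes listed under receptor restraint and sorting, all tested, 3 were called higher and 3 lower, or 40.0% against 55.4% of all genes. Their median value was -0.02. The heading does not mean that each gene dampens PDGF receptors, and how each acts on them was not tested. Omitting GFP-negative replicate 2 raised the higher count to 5. The largest differences were in 2 lower genes. Lrig1, a transmembrane protein that limits several receptor tyrosine kinases, was at 467, 386 and 559 CPM in GFP-negative and 35.3, 39.9 and 42.1 CPM in GFP-positive libraries, giving -3.59 on the log2 scale (SE 0.14, adjusted p = 2.04e-06 in edgeR). Its relative Lrig2 was higher by 0.53 (SE 0.08), and Lrig3 was not called. Slc9a3r1, which encodes the scaffold NHERF1 that binds the tail of PDGF receptors, was at 138, 128 and 162 against 11.6, 15.2 and 14.4 CPM, a log2 fold change of -3.37 (SE 0.13). Ptprj, a phosphatase that acts on PDGF receptors, was lower, at -0.50, and Ptpn1, the phosphatase PTP1B, was higher by 0.42. Cblb, a ubiquitin ligase, was higher by 0.29 and lost the call without replicate 1 or replicate 3 (adjusted p up to 0.0876), and its relative Cbl was not called.

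**Figure D3:**
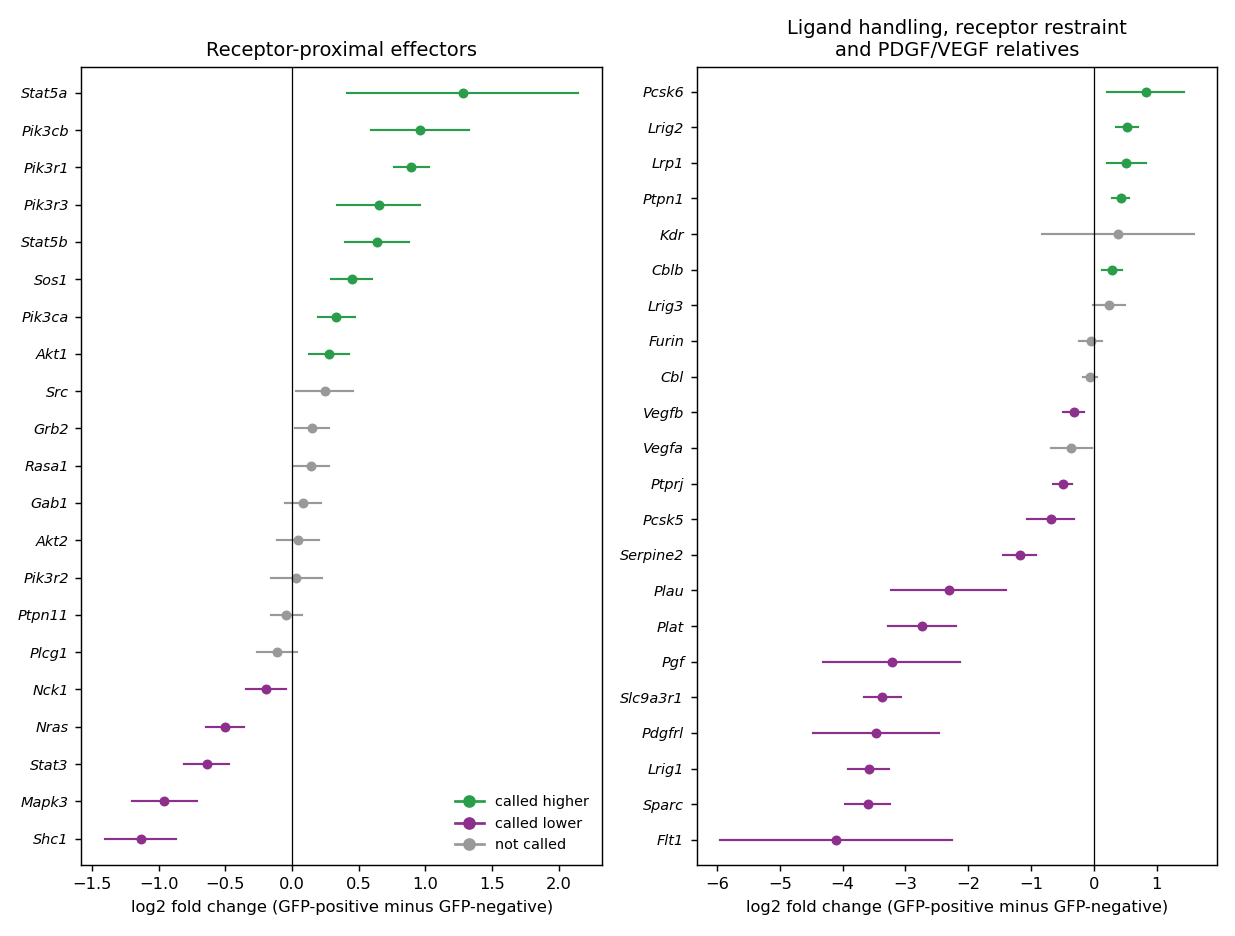
Log2 fold change (horizontal axis, GFP-positive minus GFP-negative) with its 95% interval for the tested genes named in the text from the effector list (left) and from the ligand handling, receptor restraint and PDGF/VEGF relative lists (right); green was called higher, purple lower and grey not called. The effectors shown lie between -1.14 and 1.28, and Flt1, Sparc, Lrig1, Pdgfrl, Slc9a3r1 and Pgf lie below -3.

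VEGF ligands share the cystine-knot fold of PDGF chains, and their receptors are related kinases. Of 9 listed relatives 7 were tested, with 4 called lower and 0 higher (0 at an unadjusted p below 0.05 and 0 by DESeq2). That is 57.1% called, near the 55.4% of all genes, so the count is no result about the relatives as a group. Pdgfrl, a secreted protein resembling the extracellular part of a PDGF receptor, was at 6.28, 7.59 and 9.23 CPM in GFP-negative and 0.354, 1.26 and 0.408 CPM in GFP-positive libraries. The value of -3.47 (SE 0.43, adjusted p = 2.88e-04 in edgeR) was opposite in sign to that of Pdgfra. Pgf, placental growth factor, had a value of -3.22, and Flt1, its receptor, one of -4.10. The Flt1 value rests on a spread of 1.59 to 7.78 CPM among GFP-negative libraries. Vegfb was lower, at -0.32, and lost the call without replicate 3 (adjusted p = 0.0932). Vegfa, the most abundant by CPM of these ligands, had a value of -0.36 (edgeR adjusted p = 0.0606) and missed the threshold, but passed it in DESeq2 (adjusted p = 0.0266), with upper-quartile scaling (0.0472) and with the replicate block (0.00198). The summed fibroblast, mural and endothelial markers were also lower in GFP-positive libraries, with endothelial sums of 1.82 to 2.52 against 1.14 to 1.47 CPM. Of 10 endothelial markers, 9 were below 1 CPM in every library and 2 were tested. Vwf was called lower, at 1.33 against 0.594 CPM on average, and Pecam1 was not called, at 0.389 against 0.425 CPM. Erg, which was not tested, was higher in GFP-positive libraries, at 0.0418 against 0.198 CPM on average. The summed astrocyte markers lay between 3203 and 4051 CPM in GFP-negative and between 435 and 571 CPM in GFP-positive libraries. The part of any of these cell types in the values of Pdgfrl, Pgf, Flt1, Sparc, Plat, Lrig1 and Slc9a3r1 was not tested.

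Of 9 transcription factors reported to act upstream of Pdgfra, all tested, 8 were called higher, against 26.1% of all genes, with a median of 0.79, and 0 lower (1 at an unadjusted p below 0.05, and 0 by DESeq2). Earlier results of these data had already shown several of them higher, so the count is not independent evidence. Sox10, Olig1 and Olig2 are also on the precursor marker list, and Sox9 is on the neural stem cell list. The higher calls of these genes are therefore counted in both places. Sox8 was at 444, 500 and 434 against 868, 1015 and 1020 CPM, giving 1.07 on the log2 scale (SE 0.09, adjusted p = 3.02e-05 in edgeR). Sox6 was higher by 1.28 (SE 0.11). Sox5, which acts with Sox6, had a value of -0.12 and was called lower with upper-quartile scaling (adjusted p = 0.0373) or with a filter of 1 CPM in 3 libraries (0.046). Sox9 was called higher, by 0.34, a call that 5 of 9 such refits did not return (adjusted p at most 0.151).

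The 3 protein-coding genes nearest to Pdgfra on either side, in RefSeq's order, are Lnx1, Chic2 and Gsx2 before it and Kit, Kdr and Srd5a3 after it. Kit, the stem cell factor receptor and a relative of the PDGF receptors, was at 8.19, 10.9 and 10.9 CPM in GFP-negative and 165, 111 and 153 CPM in GFP-positive libraries, higher by 3.84 on the log2 scale (SE 0.18, adjusted p = 3.06e-06 in edgeR). Like Pdgfra, Kit was detected in the GFP-negative fraction at 4.95%, 9.81% and 7.08% of its level in the same-numbered GFP-positive library. Chic2 was called higher, by 0.85 (SE 0.14, edgeR adjusted p = 0.00128). Lnx1, Kdr and Srd5a3 had values of 1.00, 0.38 and -0.38 and were not called (edgeR adjusted p = 0.177, 0.564 and 0.0907), and Gsx2 was below the count filter with at most 2 counts in a library. With the replicate block Lnx1 was called, at 1.23 (edgeR adjusted p = 0.00456), as was Srd5a3, at -0.36 (0.0347). Of the 5 neighbours tested, 2 were called higher, against 26.1% of all genes.

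**Figure D4:**
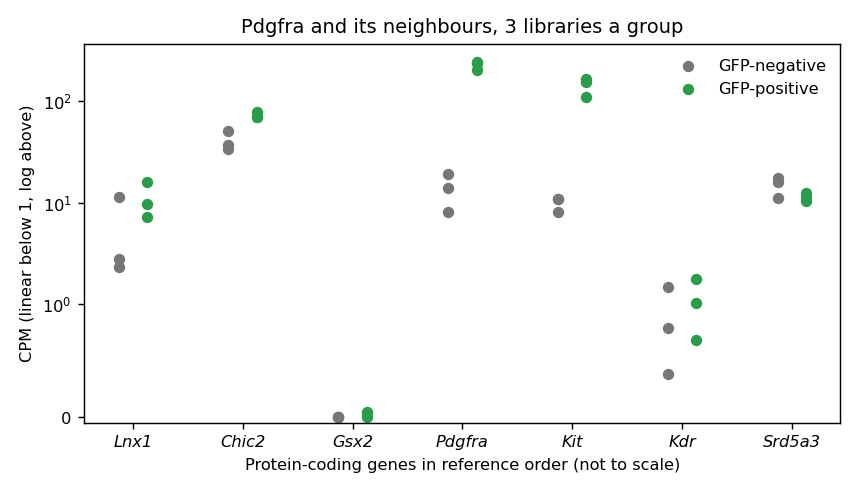
CPM of Pdgfra and its 3 protein-coding neighbours on either side (vertical axis linear below 1 and logarithmic above), with 1 point per library (grey GFP-negative, green GFP-positive). Pdgfra and Kit separate widely, Chic2 less, and Lnx1, Kdr and Srd5a3 overlap.

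Genes with the most similar profiles were found by the root mean square distance between centred log2 CPM values over the 6 libraries, among the 9992 or 9993 genes whose log2 CPM averaged 3 or more. For Pdgfra these were Stk32a (distance 0.262), Gpr17 (0.274) and Plppr1 (0.287). Mean levels of Gpr17, which marks precursors that begin to differentiate, were 21.0 CPM in GFP-negative and 303 CPM in GFP-positive cells. For Pdgfa they were Bora, Slc15a4 and Tmod2, at 0.0465 to 0.05005. For Pdgfc they were Cdc20, Kcnc1 and Cit, at 0.0628 to 0.0684. For Pdgfd no gene came closer than 0.642, the distance of Irx2. All of these profiles share the same 6 libraries, so the likeness is a description.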

How the data were processed

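RNA was measured by bulk sequencing (SMART-Seq Stranded kit, per the labels' protocols). The submitters' processing notes list TopHat2 2.1.1 and featureCounts 2.0.0 among the tools, and the build mm39. Annotation and strand setting were not given in the sources used here, so reads of overlapping antisense genes may be mixed. The deposited table holds raw counts per gene, per the file headers, which may include PCR copies, so intervals and floors (3 counts) cover counting error only.

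Genes were tested in R 4.3.3 by the quasi-likelihood F test of edgeR 4.0.16 after filterByExpr and TMM scaling, with Benjamini-Hochberg adjustment over 14554 genes and no replicate block. SEs were derived from log2 fold changes and their F values. DESeq2 1.42.0, RLE and upper-quartile scaling, other filters, the block and left-out libraries were alternatives. Libraries of a group differed beyond counting noise (chi-square over degrees of freedom 9.83 to 34.2). Correlating each GFP-negative library's deviation from its group mean with that of its GFP-positive partner gave 0.218, 0.355 and 0.159. Each was over 0.1, the limit set for taking the numbers to pair libraries. GFP-negative 1 with GFP-positive 3 also passed it, at 0.128, so the limit alone does not set same-numbered libraries apart. The remaining mismatched combinations lay between -0.306 and 0.00967. The main test and the permutation tests did not use the pairs, and the blocked value is given where it changes the call of a gene named in the text. Receptor to ligand ratios used GENCODE M21 exon lengths matched by symbol, and promoters came from RefSeq GRCm38.p6, where 4 of 6 members matched.

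Members and lists were chosen with earlier results of these data known. Named genes were the 6 members, the 3 smallest p in each direction of each list, the 3 most similar profiles and the 3 neighbours on either side. Other genes named from the lists were chosen after their values were seen. Some genes of the lists are counted but not reported here by name.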

Additional observations from a re-analysis of the deposited data

How the results depend on the processing

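Of 59 recomputed fold changes of the 4 tested members, 52 kept their direction and their side of the threshold. Pdgfra stayed called in all 15 alternatives, between 3.77 and 4.47. With libraries left out, Pdgfa ranged from -0.027 to 0.24, so its sign is not set, Pdgfc from -0.50 to -0.24 (edgeR adjusted p = 0.0623 to 0.223), and Pdgfd from -1.99 to 0.31. Pdgfc passed with the replicate block, at -0.41; the block changed no other member's call, and of the other genes named in the text it changed the calls of Vegfa, Src, Lnx1, Srd5a3 and Col3a1 (-3.72, edgeR adjusted p = 9.74e-07, against 0.0801 without it). Of 150 list counts, 140 stayed within 1.5 times of the main count. With libraries left out, 2450 to 4169 genes of the whole table were called higher and 2951 to 4468 lower, against 3804 and 4254; the lowest counts came without replicate 3. Pdgfd was not tested under the filter of 1 CPM in 3 libraries, and Pdgfrb and Pdgfb were tested only with no filter. Depth limits Pdgfb, Pdgfrb and Pdgfd, which had 1, 21 and 131 counts in all.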
